A study of Mus musculus with 16 samples.

Results

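FOXO proteins are forkhead transcription factors that sit at the end of the insulin signalling chain. AKT kinases phosphorylate them, 14-3-3 proteins then hold them in the cytoplasm, and genes that they switch on go quiet. When AKT activity drops, FOXO proteins return to the nucleus and turn on genes that slow growth, restrain mTORC1 (the kinase complex that drives protein synthesis), protect from oxidants and shift fuel use. Most of this control acts on the protein, so the mRNA of a FOXO gene does not report how active its protein is. The 8 genes described here are the FOXO factor genes Foxo1, Foxo3 and Foxo4 and 5 typical FOXO-responsive genes: Sesn1 and Sesn3, which encode sestrins that restrain mTORC1, Ddit4, which encodes the mTORC1 inhibitor REDD1, Cdkn1b, which encodes the cell cycle inhibitor p27, and Klf15, a transcription factor of amino acid and glucose metabolism. They were taken from the count table by symbol, through the Ensembl identifier of each, and are 8 of 38924 rows. Each symbol matched 1 row and all 8 passed the filter on low counts.

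The study sequenced RNA of interscapular brown fat, the heat-producing depot between the shoulder blades, from C57BL/6J mice. All samples were taken at 13 weeks of age, after 4 weeks, from the age of 9 weeks, either at 30 °C, which is thermoneutral for mice, or at 22 °C, where they must make extra heat. At each temperature there were 4 libraries of wildtype littermates (WT) and 4 of mice lacking Akt2 in brown fat (KO), made with UCP1-CreER, a Cre recombinase that works once tamoxifen is given and is driven by the promoter of Ucp1, a gene of brown adipocytes. Other cells of the depot therefore keep Akt2. Whether the littermates carried the Cre or received tamoxifen is not given in the sources used here, nor is it said that each library is another animal, so the p-values capture only how far these samples vary, which may in part be technical. Libraries held 12751528 to 23866743 counts.

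Akt2 itself, an AKT kinase gene that responds to insulin, was lower in KO at a log2 fold change of -1.55 (SE 0.105, adjusted p = 2.13e-06) at 30 °C and of -1.495 (SE 0.105, adjusted p = 5.06e-07) at 22 °C, by edgeR's quasi-likelihood test, with no overlap between the libraries of the genotypes. Brown adipocyte markers (8 genes, among them Ucp1 and Adipoq, none at 0) took 1.24% to 1.46% of the counts of each library at 30 °C and 1.64% to 2.70% at 22 °C. Of 10 skeletal muscle markers up to 2 were at 0 in a library, and 4 libraries carried over 0.1% of their counts on them: 1 of WT and 2 of KO at 30 °C and 1 of KO at 22 °C, with up to 0.555%. The other 12 had at most 0.0756%. At 22 °C macrophage markers (7 genes) took 0.00551% to 0.0160% of counts, against 0.0155% to 0.0247% at 30 °C, and endothelial markers (7 genes) 0.0587% to 0.101% against 0.111% to 0.126%. Within 22 °C endothelial markers took 0.0587% to 0.0779% in WT and 0.0758% to 0.101% in KO, with 5 of the 7 called higher in KO, as were 2 of 5 fibroblast markers (Dcn and Lum), where 7.52% of all genes were called higher. In whole tissue fewer cells of a type and less RNA per cell cannot be told apart, and the part of these markers in the differences below, by temperature or by genotype at 22 °C, was not tested.

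Promoter sequences are shown for the 4 genes whose windows held a searched motif. Among them Foxo1, Sesn1 and Cdkn1b were called in a comparison of the main fit below, as was Foxo4, which had no window. Klf15 passed only in some alternative fits, and a link between matches and calls was not tested. RefSeq promoter windows (GRCm38.p6, the 250 bases before the annotated start) were matched for 7 of the 8 genes in 8 windows, with Foxo4 named only. They were searched on both strands for 4 forms of the forkhead consensus (the form GTAAACA, the form ATAAACA, the form GCAAACA and the form ACAAACA), for their shared core AAACA, which lies inside each of them, and for CACGTG, the E-box that clock factors such as CLOCK and BMAL1 bind. Capitals mark these matches, and a forkhead match on the minus strand reads as its reverse complement, TGTTT or TGTTTGT in the printed plus strand. The windows are chr3:52268087-52268336 (Foxo1), chr6:134920151-134920400 (Cdkn1b), chr10:41887189-41887438 (Sesn1, the downstream of its 2 annotated starts) and chr6:90462326-90462575 (Klf15), all printed in the sense of the gene, on the plus strand.
Foxo1: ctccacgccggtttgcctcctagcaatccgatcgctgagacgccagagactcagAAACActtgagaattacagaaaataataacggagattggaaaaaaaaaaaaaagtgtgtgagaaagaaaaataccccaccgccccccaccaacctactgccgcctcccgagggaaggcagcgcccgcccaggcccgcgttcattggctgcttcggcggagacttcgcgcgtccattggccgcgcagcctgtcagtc
Cdkn1b: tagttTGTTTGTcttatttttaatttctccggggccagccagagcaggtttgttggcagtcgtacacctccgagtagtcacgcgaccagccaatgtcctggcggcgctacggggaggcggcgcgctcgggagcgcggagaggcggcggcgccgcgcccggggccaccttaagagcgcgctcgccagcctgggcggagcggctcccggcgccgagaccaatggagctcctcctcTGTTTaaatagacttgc
Sesn1: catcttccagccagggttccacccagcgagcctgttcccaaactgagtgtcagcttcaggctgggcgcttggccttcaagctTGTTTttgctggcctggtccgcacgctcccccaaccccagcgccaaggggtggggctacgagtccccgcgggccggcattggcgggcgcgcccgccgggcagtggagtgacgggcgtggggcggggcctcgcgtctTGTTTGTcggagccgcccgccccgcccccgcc
Klf15: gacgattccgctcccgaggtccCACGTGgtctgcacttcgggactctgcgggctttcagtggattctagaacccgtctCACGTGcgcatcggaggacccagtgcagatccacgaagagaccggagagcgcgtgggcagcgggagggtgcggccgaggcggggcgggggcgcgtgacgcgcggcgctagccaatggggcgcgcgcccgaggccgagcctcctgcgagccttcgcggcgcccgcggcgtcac

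A full consensus form was present in 2 of the 8 windows. In Cdkn1b it was ACAAACA on the minus strand, 245 to 239 bases before the start, with a core AAACA also at 17 to 13 bases before it. In the downstream start of Sesn1 it was ACAAACA on the minus strand, 32 to 26 bases before the start, with a further core at 168 to 164 bases. Foxo1 held only a core, 196 to 192 bases before its start, and Klf15 held 2 E-boxes, the first at 228 to 223 and the second at 172 to 167 bases, with no forkhead match. Among 32851 RefSeq promoter windows of the same length 15.7% held any of the 4 consensus forms, 46.4% the core and 6.02% the E-box. No match says only that these letters are absent from the window, and a match is not a binding site.

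Per length of transcript, in RPKM (counts per kilobase of exon, scaled to library size like the CPM below, group means), the 8 genes spanned from Sesn3 at 0.111 to 0.140 to Ddit4 at 27.2 to 38.2. Klf15, at 33.3 in KO at 22 °C, came above Ddit4 in that group. In WT at 30 °C the order from the top was Ddit4 (35.3 ± 13.5 RPKM, SD, n = 4), Foxo4 (27.7 ± 1.08), Klf15 (16.5 ± 1.34), Cdkn1b (10.8 ± 1.53), Foxo1 (9.70 ± 0.440), Sesn1 (4.84 ± 0.600), Foxo3 (3.47 ± 0.464) and Sesn3 (0.140 ± 0.0169). The mean of Foxo4 lay within 1 SD of that of the widely spread Ddit4, and the mean of Foxo1 within 1 SD of that of Cdkn1b. At 22 °C the means of Klf15 (29.9 ± 18.8 RPKM in WT and 33.3 ± 3.69 in KO) came above those of Foxo4, in WT within its own spread, and Foxo1 (20.5 and 19.2 RPKM) came above Cdkn1b (8.41 and 8.24). Foxo4 was the FOXO gene with the highest level per length in all 4 groups, and Foxo1 came nearer to it at 22 °C (20.5 ± 3.94 against 25.2 ± 0.463 RPKM in WT and 19.2 ± 4.89 against 22.8 ± 1.499 in KO). Foxo6, the FOXO gene not among the 8, had 3 to 35 counts per library and means of 0.128 to 0.369 RPKM, and it was called in no comparison.

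Lower temperature raised Foxo1 in both genotypes, and the loss of Akt2 left no called difference in any FOXO gene in this fit. Of the 8 genes 2 were called in WT (Foxo1 higher and Cdkn1b lower) and 3 in KO (Foxo1 higher, Foxo4 and Sesn1 lower) when 22 °C was set against 30 °C, by edgeR's quasi-likelihood test at an adjusted p under 0.05 over 14103 genes. Over all genes tested 38.3% were called in WT (20.5% higher and 17.8% lower) and 26.7% in KO (13.8% higher and 13% lower), so with 8 genes these counts are close to the background. For KO against WT none of the 8 was called at 30 °C, where 0.0425% of all genes were, and 1 (Sesn1, lower) at 22 °C, where 17.6% were (7.52% higher and 10.1% lower). DESeq2 and limma-voom also called none of the 8 at 30 °C. The median log2 fold change of the 8 genes was -0.10 at 30 °C and -0.06 at 22 °C, beside 0.02 for all genes in each. Without an adjustment over the genes tested, p was under 0.05 for none of the 8 at 30 °C, where it was for 608 of 14103 genes. At 22 °C it was under 0.05 for Foxo4 and Sesn1, and for 4888 of 14103 genes.

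**Figure D1:**
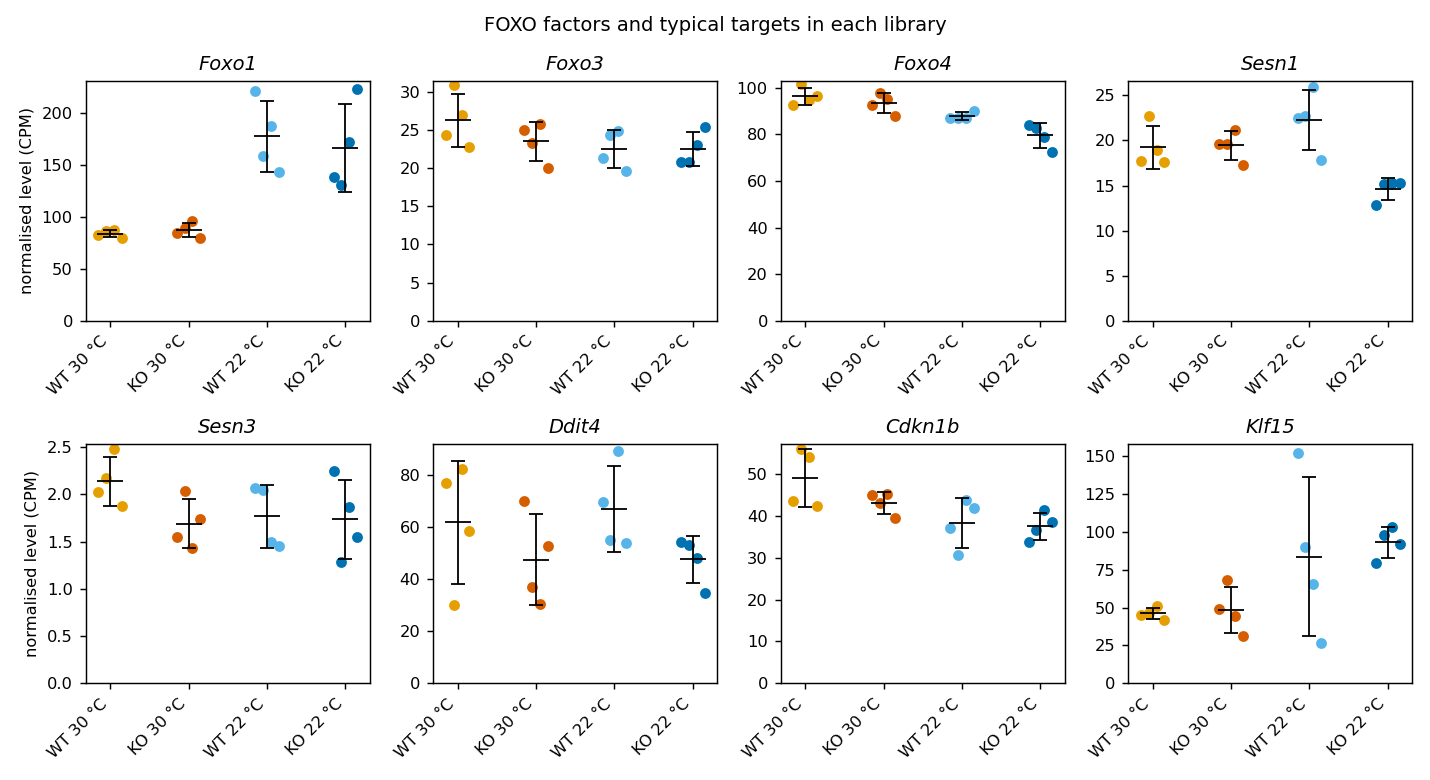
Level of each of the 8 genes in CPM (counts scaled to TMM-adjusted library size) in every library, by genotype and housing temperature, with the mean and SD of the 4 libraries of a group as bars. Foxo1 separates by temperature, from at most 96.0 CPM at 30 °C to at least 131.0 CPM at 22 °C, and Sesn1 is lowest in KO at 22 °C, from 12.8 to 15.3 CPM.

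Foxo1 (ENSMUSG00000044167, chromosome 3, 52268336 to 52353221, plus strand, GRCm38 in GENCODE M21) encodes the FOXO factor best known from insulin action in liver and fat. In WT at 30 °C its level was 82.3, 86.5, 87.8 and 79.6 CPM in replicates 1 to 4, and in KO at 30 °C it was 84.6, 89.1, 96.0 and 80.2 CPM. In WT at 22 °C it was 221.1, 159.1, 187.5 and 143.5 CPM, and in KO at 22 °C 138.3, 131.0, 172.6 and 223.9 CPM. All 8 libraries at 22 °C were above all 8 at 30 °C, and the spread was wider at 22 °C, with an SD of 34.2 and 42.4 CPM against 3.81 and 6.73 CPM at 30 °C. The log2 fold change of 22 °C against 30 °C was 1.08 (SE 0.156, adjusted p = 7.66e-05) in WT and 0.93 (SE 0.155, adjusted p = 0.00062) in KO. KO differed from WT by 0.06 at 30 °C (95% interval -0.27 to 0.39) and by -0.10 at 22 °C (95% interval -0.42 to 0.23). The difference between these effects was -0.15 (SE 0.218, adjusted p = 0.713), and the intervals leave room for a moderate change in either direction. On the other strand Foxo1 overlaps the gene Gm20402, which had 0 counts in every library.

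Foxo4 (ENSMUSG00000042903, chromosome X, 101254528 to 101260873, plus strand) is the most evenly expressed of the 8 genes, with a within-group SD of 0.07 on the log2 scale. In WT it was 92.8, 101.5, 94.7 and 96.6 CPM at 30 °C and 86.9, 87.1, 87.1 and 90.3 CPM at 22 °C. In KO it was 92.5, 98.0, 95.4 and 87.8 CPM at 30 °C and 84.3, 82.8, 78.8 and 72.6 CPM at 22 °C. Its libraries did not overlap between temperatures in either genotype, nor between genotypes at 22 °C, where KO was lower. Only the temperature difference in KO passed the test, at a log2 fold change of -0.23 (SE 0.0627, adjusted p = 0.0137). The call was lost without the 4 libraries over 0.1% muscle markers (-0.23, adjusted p = 0.109) and with a clock covariate (-0.24, adjusted p = 0.105). In WT the value was -0.13 (SE 0.0626, adjusted p = 0.104), and it passed with upper-quartile factors (-0.23, adjusted p = 0.00834), which moved the median of all genes from -0.03 to -0.13. KO against WT at 22 °C was -0.14 (SE 0.0627, adjusted p = 0.120) and passed with DESeq2 (-0.16, adjusted p = 0.0426). Non-overlapping libraries were common in these comparisons, at 35.3% and 32.6% of all genes for temperature in WT and KO and 17.5% for genotype at 22 °C.

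Foxo3 (ENSMUSG00000048756, chromosome 10, 42181841 to 42276755, minus strand), which in muscle drives atrophy and autophagy genes, was not called in any comparison. It ranged from 22.8 to 30.8 CPM in WT and 19.99 to 25.8 CPM in KO at 30 °C, and from 19.6 to 24.8 CPM in WT and 20.8 to 25.4 CPM in KO at 22 °C. The groups overlapped throughout. The value farthest from 0 was that of 22 °C against 30 °C in WT, at -0.22 (SE 0.114, adjusted p = 0.137). KO against WT was -0.16 at 30 °C (95% interval -0.40 to 0.08) and -0.001 at 22 °C (95% interval -0.24 to 0.24).

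**Figure D2:**
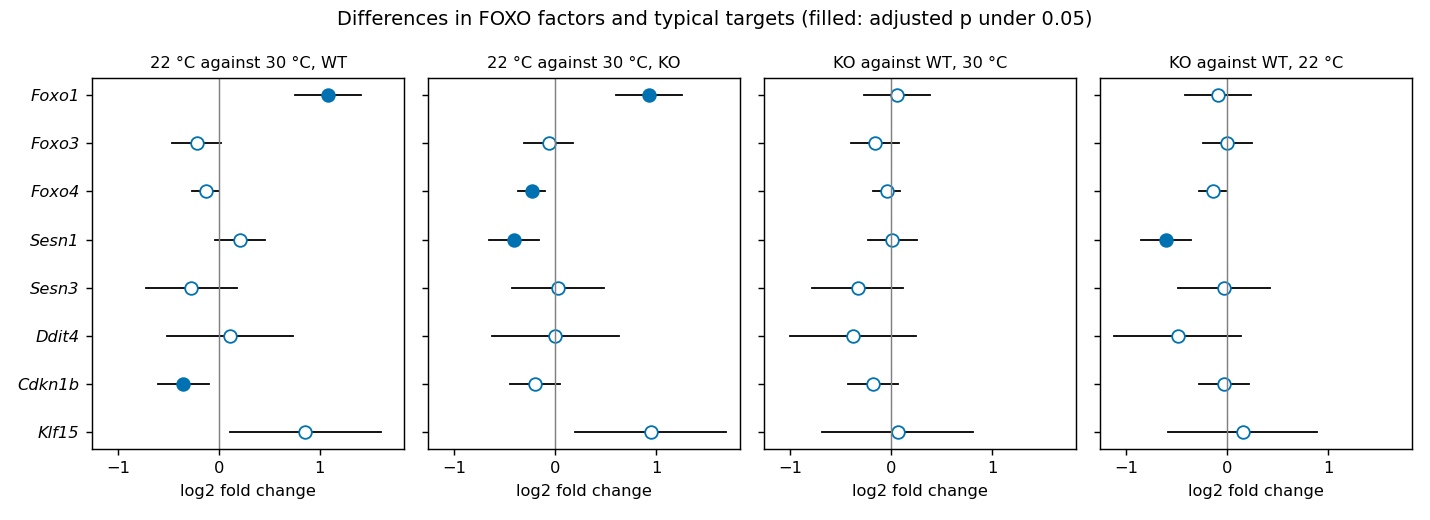
Log2 fold change of the 8 genes (circles, filled where the adjusted p is under 0.05) with its 95% interval (lines) in the 4 comparisons between groups, from the edgeR fit over all 16 libraries. Foxo1 is near 1 in both temperature comparisons and near 0 in both genotype comparisons, and Sesn1 is the only filled circle among the genotype comparisons, at -0.60.

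Sesn1 (ENSMUSG00000038332, chromosome 10, 41809935 to 41908424, plus strand), a sestrin gene also known as a p53 target, was the member that differed between genotypes, and it did so at 22 °C. At 30 °C it was 17.8, 22.8, 18.9 and 17.7 CPM in WT and 19.6, 19.7, 21.2 and 17.3 CPM in KO. At 22 °C it was 22.5, 22.7, 25.9 and 17.8 CPM in WT and 12.8, 15.2, 15.2 and 15.3 CPM in KO. The 4 KO libraries at 22 °C were the lowest of all 16. KO against WT was 0.01 at 30 °C (95% interval -0.23 to 0.26) and -0.60 at 22 °C (SE 0.117, adjusted p = 0.00327), which is 0.658 times the WT level. The second call was kept in 18 of 19 alternative fits, which include leaving out each library and leaving out the muscle-bearing ones (-0.55, adjusted p = 0.0168).

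The temperature difference of Sesn1 was called in KO and not in WT. In KO it was -0.41 (SE 0.117, adjusted p = 0.0177), and this call was lost without KO replicate 3 at 30 °C (-0.37, adjusted p = 0.0565), without the muscle-bearing libraries (-0.34, adjusted p = 0.147) and with the clock covariate (-0.14, adjusted p = 0.582). In WT it was 0.21 (SE 0.116, adjusted p = 0.175), and 0.30 (adjusted p = 0.0387) without WT replicate 4 at 22 °C. The test of the difference itself, the KO effect at 22 °C minus that at 30 °C, gave -0.62 (SE 0.165, adjusted p = 0.0543), which did not pass. It passed with DESeq2 (-0.64, adjusted p = 0.0141), with limma-voom (-0.61, adjusted p = 0.0290), without WT replicate 2 at 30 °C (-0.72, adjusted p = 0.0446) and without WT replicate 4 at 22 °C (-0.71, adjusted p = 0.0153). No member was called for this difference in the chosen fit, against 3.14% of all genes. Averaged over both temperatures KO was lower by 0.30 (log2 fold change -0.30, adjusted p = 0.0456), a call lost in 19 of 26 alternative fits, against 6.12% of all genes called.

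Circadian clock genes also differed between the genotypes where Sesn1 did. Of the 14 clock genes listed, 5 were called for KO against WT at 22 °C, where 17.6% of all genes were: Arntl, which encodes BMAL1, was higher (0.90, adjusted p = 0.00171), as was Clock (0.49), and Dbp, a clock output gene, was lower (-2.57, adjusted p = 0.000267), as were Cry2 (-0.72) and Per3. At 30 °C none of the 14 was called, where 0.0425% of all genes were. Dbp was 11.1 to 35.4 CPM in WT and 3.06 to 5.45 CPM in KO at 22 °C, and 13.6 to 24.1 and 9.74 to 22.9 CPM at 30 °C. As a single clock measure, the log2 level of Dbp less that of Arntl was -0.80 to 1.78 in WT and -3.43 to -2.20 in KO at 22 °C, with no overlap. WT replicate 4 had both the lowest clock measure and the lowest Sesn1 of the WT libraries at 22 °C. With the clock measure as a covariate KO against WT in Sesn1 at 22 °C was -0.15 (SE 0.214, adjusted p = 0.870). Because the measure separates the genotypes at that temperature, the clock and the genotype cannot be told apart there. In KO at 30 °C the measure was -1.36 to 0.26, so within KO it also separates the temperatures. Clock and temperature therefore cannot be told apart in KO, which holds for every KO temperature result given here with the clock covariate. Time of collection is not given in the sources used here.

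**Figure D3:**
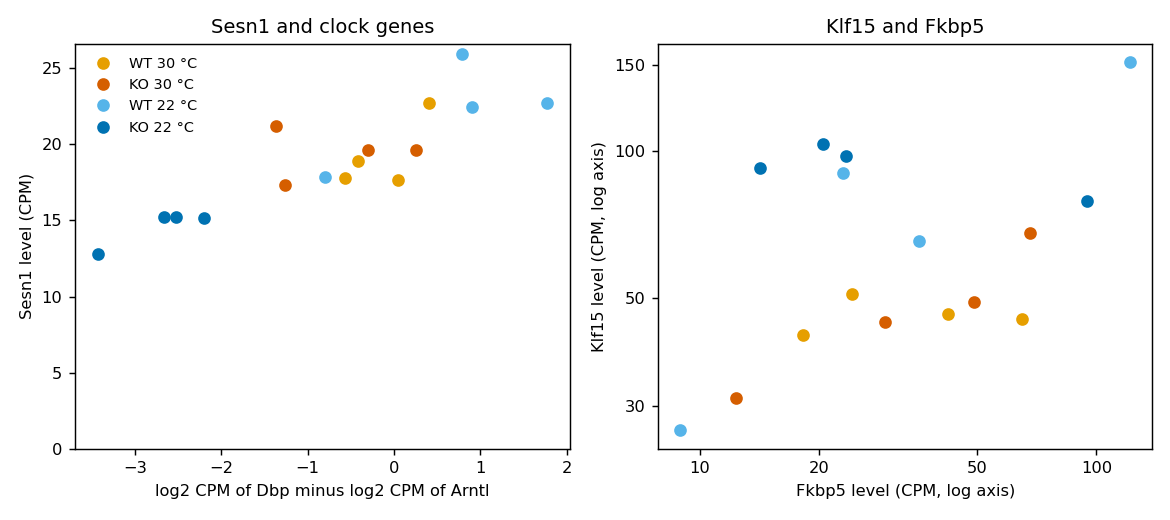
Left, the level of Sesn1 (CPM) against the clock measure (Dbp less Arntl, both as log2 CPM) and, right, the level of Klf15 against that of Fkbp5, a glucocorticoid-induced gene (CPM, both axes logarithmic), with 1 point per library coloured by group. The KO libraries at 22 °C lie lowest on both axes at left, and at right the WT libraries at 22 °C spread from 26.8 to 151.7 CPM of Klf15.

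Sesn3 (ENSMUSG00000032009, chromosome 9, 14275067 to 14333101, plus strand), among the classical FOXO targets in other tissues, was barely expressed. It had 19 to 43 counts per library, or 1.29 to 2.48 CPM, and no comparison was called. KO against WT was -0.33 at 30 °C (95% interval -0.79 to 0.12) and -0.03 at 22 °C (95% interval -0.48 to 0.43). These intervals leave room for a moderate fall at 30 °C and for a moderate change in either direction at 22 °C. Sesn2, the third sestrin gene and a stress-responsive one, was the most abundant sestrin per length, at group means of 6.15 to 16.7 RPKM. It was higher at 22 °C in KO (by 1.44 on the log2 scale, SE 0.319, adjusted p = 0.00422), from 12.6 to 38.8 CPM at 30 °C to 52.6 to 63.1 CPM at 22 °C, and KO against WT did not pass at either temperature (-0.41 at 30 °C and 0.36 at 22 °C). The Sesn2 call was lost with the clock covariate.

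Ddit4 (ENSMUSG00000020108, chromosome 10, 59949669 to 59951834, minus strand) encodes REDD1, which glucocorticoids and stress also induce. At 30 °C it was 77.0, 30.0, 82.4 and 58.7 CPM in WT and 70.2, 36.9, 30.7 and 52.7 CPM in KO. At 22 °C it was 69.8, 55.02, 89.3 and 53.9 CPM in WT and 54.3, 53.3, 48.4 and 34.8 CPM in KO. The genotype means were lower in KO at both temperatures, but the libraries overlapped, and only 21.5% of its variance on the log2 scale lay between groups. KO against WT was -0.38 at 30 °C (95% interval -1.01 to 0.25) and -0.49 at 22 °C (95% interval -1.12 to 0.14), and -0.44 averaged over both (SE 0.209, adjusted p = 0.227). No comparison of Ddit4 was called in any alternative fit.

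Cdkn1b (ENSMUSG00000003031, chromosome 6, 134920401 to 134925513, plus strand) was lower at 22 °C in WT. It was 43.5, 55.8, 54.0 and 42.4 CPM in WT at 30 °C and 37.0, 30.5, 43.8 and 42.0 CPM at 22 °C. In KO it was 44.9, 43.0, 45.1 and 39.4 CPM at 30 °C and 33.6, 36.7, 41.3 and 38.5 CPM at 22 °C. The libraries overlapped in both genotypes. The log2 fold change was -0.35 in WT (SE 0.117, adjusted p = 0.0266) and -0.20 in KO (SE 0.118, adjusted p = 0.222), and the difference between them was 0.15 (SE 0.166, adjusted p = 0.619). The WT call was lost without WT replicate 2 or 3 at 30 °C (-0.28 and -0.30, adjusted p = 0.0881 and 0.0776), without WT replicate 1 or 2 at 22 °C (-0.34 and -0.26, adjusted p = 0.0622 and 0.0712), without the muscle-bearing libraries (-0.29, adjusted p = 0.101), with limma-voom (-0.26, adjusted p = 0.103), in a fit of the compared groups alone (-0.37, adjusted p = 0.0649) and with the clock covariate (-0.33, adjusted p = 0.0642). KO against WT was -0.18 at 30 °C and -0.03 at 22 °C, with neither called.

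Klf15 (ENSMUSG00000030087, chromosome 6, 90462576 to 90475238, plus strand), which glucocorticoids and the clock also control, had the widest range of the 8 genes. At 30 °C it was 45.2, 46.4, 51.0 and 42.0 CPM in WT and 49.1, 68.0, 44.5 and 31.2 CPM in KO. At 22 °C it was 151.7, 90.2, 65.4 and 26.8 CPM in WT and 79.1, 97.6, 103.2 and 92.1 CPM in KO. WT replicate 4 at 22 °C was below every other library, while replicates 1 to 3 were above all WT libraries at 30 °C. In KO the temperatures did not overlap. The log2 fold change of 22 °C against 30 °C was 0.86 in WT (SE 0.352, adjusted p = 0.0664) and 0.95 in KO (SE 0.352, adjusted p = 0.0580), neither of which passed.

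Single libraries and the choice of fit decided whether Klf15 passed. Without WT replicate 4 at 22 °C the WT value was 1.15 (adjusted p = 0.00236), and without WT replicate 1 at 22 °C it was 0.39 (adjusted p = 0.351). The KO value passed with limma-voom (1.09, adjusted p = 0.00240), with only the groups compared (0.94, adjusted p = 0.0114), without KO replicate 2 at 30 °C (1.16, adjusted p = 0.0390) and with the clock covariate (2.00, adjusted p = 0.0117). KO against WT was 0.06 at 30 °C (95% interval -0.68 to 0.81) and 0.15 at 22 °C (95% interval -0.58 to 0.89). Fkbp5, induced by glucocorticoids, was 121.5, 23.0, 35.6 and 8.95 CPM in the 4 WT libraries at 22 °C, so replicates 1 and 4 were also its highest and lowest. The 10 glucocorticoid-responsive genes listed took 0.0577% to 0.127% of counts in these libraries and 0.0725% to 0.0891% in KO replicates 2 to 4 at 22 °C, against 0.309% in KO replicate 1, the library with the most muscle marker counts. Klf15 was lowest of the KO libraries at 22 °C in that replicate 1, at 79.1 CPM against 92.1 to 103.2 CPM. The part of glucocorticoid exposure in the spread of Klf15 was not tested.

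Tested too were 6 genes of amino acid breakdown that Klf15 is known to control. Of these, Bckdha, a subunit of branched-chain ketoacid dehydrogenase, and Prodh rose at 22 °C in WT (Prodh by 0.65), where 20.5% of all genes were called higher. In KO 2 of the 6 were called higher at 22 °C, Bckdha and Bcat2, where 13.8% of all genes were. That Bcat2 call was lost in 7 of 19 alternative fits. Bckdha rose by 0.95 (SE 0.107, adjusted p = 9.06e-06) in WT and by 0.47 (SE 0.106, adjusted p = 0.00498) in KO, a call lost without the muscle-bearing libraries. For KO against WT at 22 °C 1 of the 6 was called higher, 1 lower and 4 were not called. Over all genes 7.52% were called higher and 10.1% lower. At 22 °C KO was higher than WT in Bcat2, the mitochondrial branched-chain aminotransferase (0.61, SE 0.129, adjusted p = 0.00554), and lower in Bckdha (-0.40, SE 0.106, adjusted p = 0.0179). The Bcat2 difference was kept in all 19 alternative fits. The Bckdha difference was lost with only the groups compared and without the muscle-bearing libraries, and turned to 0.14 with the clock covariate.

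A wider list of 48 FOXO-responsive genes, 47 of them tested, mixes genes that FOXO factors induce with some that they repress, such as the cyclins Ccnd1 and Ccnd2. For KO against WT none of the 47 was called at 30 °C, where 0.0425% of all genes were. At 22 °C 7 were higher and 8 lower, or 15 of 47, beside the 17.6% of all genes named above. The median at 22 °C was 0.13, against 0.02 for all genes. Of these 15 genes 7 kept the call with any 1 library left out, and 8 were kept without WT replicate 2 (adjusted p = 0.0532 to 0.115 for those lost), without KO replicate 1 (0.0508 to 0.124) or without the muscle-bearing libraries. With limma-voom 7 of the 15 were kept, and with only the groups compared also 7, though not the same 7 as with 1 library left out. With the clock covariate none of the 15 was kept (adjusted p = 0.0689 or more).

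**Figure D4:**
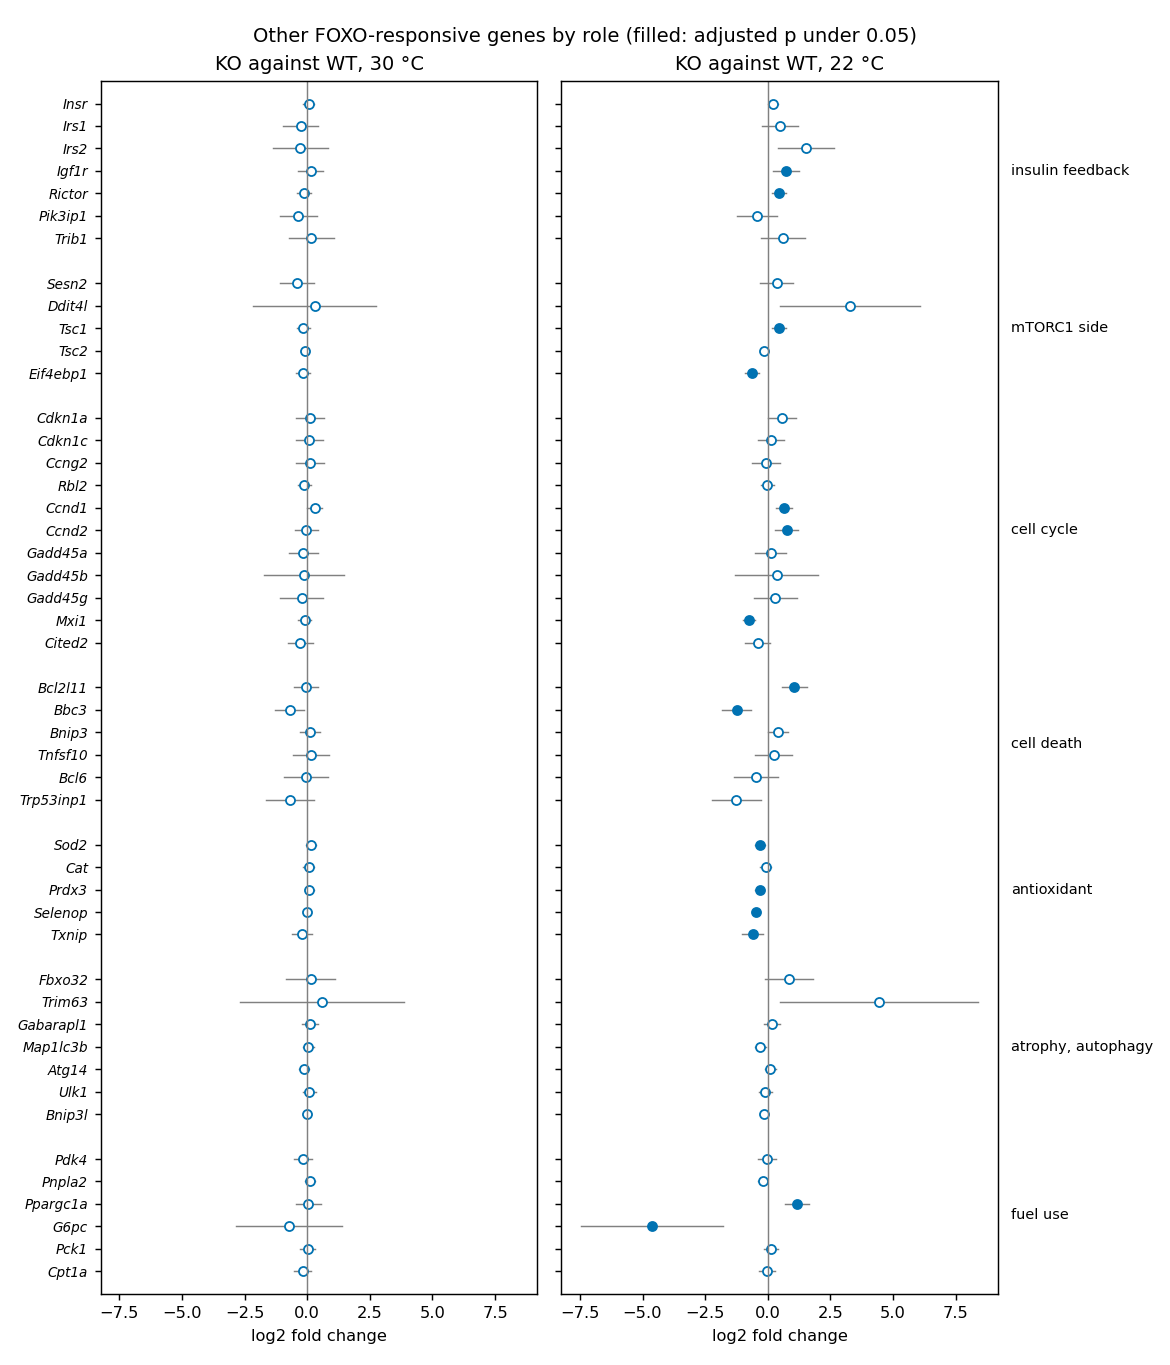
Log2 fold change of KO against WT at 30 °C (left) and 22 °C (right) for the 47 tested FOXO-responsive genes outside the 8, grouped by role, with 95% intervals as lines and filled circles where the adjusted p is under 0.05. No circle is filled at 30 °C, and at 22 °C 7 filled circles lie above 0 and 8 below. The intervals of Trim63 and Ddit4l at 22 °C are wide, and the part of the KO library with 0.555% muscle markers in this was not tested.

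Among regulators of growth and survival at 22 °C, the cell death gene Bcl2l11 (BIM) was higher in KO and Bbc3 (PUMA) lower. Bcl2l11 was 2.41 to 5.44 CPM in WT and 6.75 to 8.85 CPM in KO (a log2 difference of 1.06, SE 0.232, adjusted p = 0.00695). Bbc3 was 11.1 to 19.1 CPM in WT and 3.47 to 6.62 CPM in KO (-1.24, SE 0.268, adjusted p = 0.00644). From 30 °C to 22 °C in WT, a comparison that shares the WT libraries at 22 °C, Bcl2l11 fell by 1.10 and Bbc3 rose by 1.11. Ccnd1, which encodes cyclin D1, was higher in KO (0.64, SE 0.148, adjusted p = 0.00953), from 7.67 to 11.2 CPM in WT to 12.4 to 16.1 CPM, a call lost with limma-voom. Mxi1, an antagonist of MYC that FOXO factors are known to induce, was lower in KO (-0.75, SE 0.119, adjusted p = 0.000823), from 33.0 to 39.8 CPM in WT to 18.4 to 26.5 CPM.

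Of the 5 genes on the side of mTORC1, 1 was called higher in KO at 22 °C (Tsc1) and 1 lower (Eif4ebp1). Over all genes 7.52% were called higher and 10.1% lower. The Tsc1 call was lost, among other fits, without WT replicate 2 or KO replicate 1 at 22 °C. Eif4ebp1, which encodes the translation repressor 4E-BP1, was lower in KO at 22 °C (-0.63, SE 0.132, adjusted p = 0.00505), from 200.5 to 318.6 CPM in WT to 138.9 to 177.5 CPM. It was higher at 22 °C than at 30 °C in both genotypes (0.99 in WT and 0.51 in KO), the latter call being lost without the libraries bearing muscle and with the clock measure, and the genotype call was lost with only the groups compared. Of the 7 genes of insulin feedback 2 were higher in KO at 22 °C (Igf1r and Rictor, neither kept with any 1 library left out) and 0 lower, where 7.52% of all genes were called higher and 10.1% lower. Irs2, an insulin receptor substrate gene and a well-known FOXO target, was 1.52 at 22 °C (SE 0.525, adjusted p = 0.0569) and did not pass. Insr, the insulin receptor gene, rose at 22 °C in both genotypes, by 0.39 (adjusted p = 0.00497) in WT and 0.55 (adjusted p = 0.000821) in KO. Pik3ip1, an inhibitor of PI3K and a known FOXO target, fell by 1.67 and 1.74, and in KO that call was lost with the clock covariate.

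The 5 genes listed for antioxidant defence include Txnip, which encodes an inhibitor of thioredoxin. Of the 5 genes, 4 were higher at 22 °C in WT, where 20.5% of all genes were called higher: Sod2 (0.76), Prdx3 (0.64), Cat (0.75, catalase) and Selenop (0.39, the selenium carrier protein). In KO 3 rose and 1 fell, where 13.8% of all genes were called higher and 13% lower. Cat rose by 0.61 (adjusted p = 0.000737), Sod2 by 0.28 (adjusted p = 0.0416) and Prdx3 by 0.25 (adjusted p = 0.0401), while Txnip was lower (-0.65, adjusted p = 0.0214). Of these 4 calls in KO that of Cat was kept with any 1 library left out. For KO against WT at 22 °C 4 of the 5 were lower, where 10.1% of all genes were. Selenop was 667.9 to 780.9 CPM in WT and 507.2 to 530.5 CPM in KO (-0.47, SE 0.0743, adjusted p = 0.000849), and its call was kept with any 1 library left out. The other calls each depended on single libraries. That of Sod2 (-0.32, adjusted p = 0.0326) was lost without WT replicate 1 or 2 or KO replicate 1 or 3, that of Prdx3 (-0.31, adjusted p = 0.0205) without KO replicate 1 or 3, and that of Txnip (-0.60, adjusted p = 0.0420) without WT replicate 2 or 3 or KO replicate 2 or 4, at adjusted p of 0.0507 or more. None of the 7 atrophy and autophagy genes was called for genotype, where 0.0425% of all genes were at 30 °C and 17.6% at 22 °C.

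Among genes of fuel use Ppargc1a, a coactivator of mitochondrial and gluconeogenic genes, was highest in KO at 22 °C. It was 29.5 to 34.9 CPM in WT and 27.4 to 47.3 CPM in KO at 30 °C, then 58.5 to 101.0 CPM in WT and 134.3 to 281.9 CPM in KO at 22 °C. KO against WT was 1.16 at 22 °C (SE 0.226, adjusted p = 0.00348) and the difference between temperatures was 1.11 (SE 0.321, adjusted p = 0.0708). Pck1, the phosphoenolpyruvate carboxykinase gene and a FOXO1 target in liver, rose at 22 °C by 0.57 in WT and 0.70 in KO, with a genotype difference of 0.14 (adjusted p = 0.500). Pdk4, an inhibitor of glucose oxidation that FOXO1 induces in muscle and liver, was -0.18 at 30 °C and -0.03 at 22 °C (95% interval -0.38 to 0.32), and was not called in any comparison.

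Of 24 regulators of FOXO factors tested, 6 were higher and 4 lower in KO at 22 °C, where 7.52% of all genes were called higher and 10.1% lower. At 30 °C Akt2 was the 1 regulator called, where 0.0425% of all genes were. Akt1 was higher by 0.37 (SE 0.0821, adjusted p = 0.00745) and Sgk2, a kinase of the AKT-related SGK family, by 4.30 (SE 0.365, adjusted p = 3.09e-06). Sgk2 was 0.523 to 1.97 CPM in WT and 17.6 to 27.9 CPM in KO at 22 °C, and 3.67 to 7.74 and 6.57 to 11.1 CPM at 30 °C. Sgk1 was 0.58 higher (adjusted p = 0.134) with no overlap between the genotypes, but did not pass. The deacetylase gene Sirt1 (0.48) and the acetyltransferase gene Crebbp (0.70), whose products modify FOXO proteins, were higher, and Ywhag, a 14-3-3 gene, was lower (-0.30). Of the 10 calls 7 were kept with any 1 library left out. Those of Akt1, Sirt1, Crebbp and Ywhag were lost when the fit held only the groups compared, and with the clock covariate the 2 calls kept among the 10 were those of Akt2 and Sgk2.

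The genes whose log2 levels followed a member most closely over the 16 libraries are given as a description, since libraries of a group share genotype and temperature. For Foxo1 they were Mut, Fech and Tcaim (Pearson's r 0.96 each, 0.71 to 0.84 within groups), and for Foxo4 Smarcd3, Lynx1 and Fuca2 (0.90 to 0.91, 0.48 to 0.61 within groups). For Sesn1 they were Herpud1, Gucd1 and C87436 (0.89 to 0.94), for Cdkn1b Usp49, Nr2f2 and Tyw3 (0.89 to 0.91), and for Klf15 Kctd15, Smpd1 and Dcaf11 (0.85 to 0.88). Likeness was lower for Foxo3 (Abhd14b, Usp3 and Cnnm3, 0.74 to 0.78), Sesn3 (Nomo1, Qsox1 and Col5a3, 0.73 to 0.77) and Ddit4 (Elmo2, Rhob and Mis12, 0.70 to 0.75). Among the 8 genes themselves the closest pair within groups was Foxo3 and Sesn1 (r 0.84). Foxo1 and Foxo4 had an r of -0.77 over all libraries and -0.51 within groups.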

How the data were processed

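Bulk RNA-seq of 16 brown fat libraries was used, grouped by their titles. The authors deposited whole-number read counts per Ensembl gene, whose totals differ between libraries. The submitters' processing notes name the tools FastQC (0.10.1), STAR (2.4.2a) and edgeR (3.14.0), and GRCm38 and mm10, without a role for each. Which program counted reads, by which annotation and with which strand setting, is not stated in those notes. Symbols matched 37607 of 38924 identifiers, and coordinates are from GENCODE M21.

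In R 4.3.3 and edgeR 4.0.16, 14103 of 24818 genes with a count passed filterByExpr (minimum count 10). All 16 libraries entered 1 quasi-likelihood model with TMM factors and a term per group. There were 6 comparisons, called at a Benjamini-Hochberg adjusted p under 0.05 over all genes tested. CPM use TMM-adjusted library sizes, and RPKM also the union of exons. Intervals are 95%. The typical biological coefficient of variation was 22.5%.

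Alternatives were other scaling factors and filters, DESeq2 1.42.0, limma-voom (limma 3.58.1) with quality weights, a fit of the compared groups alone, a replicate block, leaving out each library or all those over 0.1% muscle markers, and muscle or clock covariates. The members, lists and tests were chosen with earlier results of these data known. The rule for names took the 8 genes, Akt2, Akt1 and Sgk1, up to 4 called genes of smallest p per list and comparison (with none called, up to 2 of the highest count), and the 3 nearest genes per member. Outside it Crebbp, Sirt1 and Clock at 22 °C, Irs2, Pdk4, Trim63, Ddit4l, Fkbp5 and Gm20402 were named after their values were seen. The fit was tested on simulated data. A regulator that is counted in its list is not reported here.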

Additional observations from a re-analysis of the deposited data

Results flagged for a closer look

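Within groups of 4 libraries 44 sets of values were examined for a library far from the other 3 (a gap beyond Dixon's 95% critical value), and 3 were found, where chance gives about 1 in 20. Foxo4 was 90.3 CPM in WT replicate 4 at 22 °C, against 86.9 to 87.1 CPM in the other 3. Sesn1 was 12.8 CPM in KO replicate 1 at 22 °C, the library with the most muscle marker counts, against 15.2 to 15.3 CPM. Sgk1 was 56.2 CPM in WT replicate 2 at 30 °C, against 123.3 to 134.7 CPM.

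Outside the cell type markers, the KO effect differed between 22 °C and 30 °C for 5 of the genes reported here, none of them among the 8. This was by edgeR's test of the difference (adjusted p under 0.05 over all genes tested), which 3.14% of all genes passed. Of the markers, 2 of 5 fibroblast genes (Dcn and Lum) and 1 of 7 endothelial genes (Vwf) were also called, each higher. For Sgk2 the KO effect was higher at 22 °C by 3.37 (adjusted p = 0.0012). It was lower for Dbp (-2.22, adjusted p = 0.0239), for Phlda3, a p53-responsive inhibitor of AKT (-1.43, adjusted p = 0.000955), for Mxi1 (-0.65, adjusted p = 0.0485) and for Selenop (-0.45, adjusted p = 0.0328). With 1 library left out the calls of Sgk2 and Phlda3 were kept in all 16 fits, while those of Mxi1, Selenop and Dbp were lost in 11, 9 and 5 of them. With the clock covariate those of Sgk2 (3.41, adjusted p = 0.131) and Phlda3 (-1.42, adjusted p = 0.0701) were lost too.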

How the results depend on the processing

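For the 8 genes 48 results were refitted in 1024 alternatives: 978 kept the side of the threshold, 33 lost a call, 13 gained one and 0 reversed a called value. The 978 include uncalled values that changed sign, such as Foxo1 for KO against WT at 22 °C (-0.304 to 0.127 over 19 fits). The number of members called in KO against WT at 22 °C (1) became 2 with DESeq2 and 0 with the clock covariate. In 22 °C against 30 °C in WT (2) it became 1 with limma-voom, only the groups compared, no muscle-bearing libraries or the clock covariate, and in KO (3) 1 without the muscle-bearing libraries. For the interaction (0) it was 1 with DESeq2 and 1 with limma-voom, and for the average KO effect (1) it was 0 with upper-quartile factors, no filter, no muscle-bearing libraries, the muscle covariate or the clock covariate. Leaving out 1 library gave 2 to 4 members for temperature in KO, 1 to 4 in WT, 0 to 1 for the interaction, 0 to 1 for the average, 1 to 1 for KO at 22 °C and 0 to 0 at 30 °C.

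Genes called in all for KO against WT at 30 °C (6) were 22 with DESeq2, 44 with limma-voom and 1 without the muscle-bearing libraries, and at 22 °C (2482) they were 634 in a fit of the compared groups alone, 1432 without the libraries bearing muscle and 109 with the clock measure. For temperature in KO (3772) they were 6067 with limma-voom, 2115 without the libraries bearing muscle and 2215 with the clock measure. For the interaction (443) they were 236 with no filter, 1060 with DESeq2, 1050 with limma-voom, 96 without the libraries bearing muscle and 29 with the clock measure, and for the average (863) 1366, 1495, 344 and 100 with DESeq2, limma-voom, no muscle-bearing libraries and the clock covariate. With 1 library left out the ranges were 2 to 7, 1936 to 3080, 4509 to 5570 (temperature in WT), 2729 to 3838, 147 to 1085 and 545 to 1090. With upper-quartile factors temperature gave 2196 higher and 3382 lower genes in WT (2897 and 2509 in the chosen fit) and 1179 and 2540 in KO (1943 and 1829).

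Same-numbered libraries deviated together in no regular way (correlations of -0.50 to 0.52), so the numbers were not taken to pair samples. With the replicate block the interaction gave 186 genes, and Klf15 in KO passed for temperature (1.02, adjusted p = 0.0357). Reversals among listed genes came with the clock covariate: for KO against WT at 22 °C Sod2 became 0.017, Prdx3 0.026, Atf4 -0.015, Bckdha 0.142 and Arntl -0.074, and for the average Arntl became -0.049, Arntl being part of that covariate. The cause was not tested.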
